A study of Mus musculus with 6 samples.

Results

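Type I interferon response genes are the genes that cells switch on after interferon alpha or beta binds its receptor. A list of 32 such genes was followed, covering transcription factors, sensors of foreign nucleic acid, antiviral effectors and a ubiquitin-like modifier with its protease. The members were chosen by gene symbol, for their known induction by interferon, and every probe annotated to one of the 32 symbols was collected. Earlier results of these data were known when the list was chosen. At least 1 probe was paired with 31 of the 32 genes, and 24 had a probe that was detected well enough to be tested, among 9297 genes tested in all.

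The values came from freshly isolated splenic B cells of 3 B6.Sle2 mice and 3 B6 mice, each mouse on an Illumina expression array of its own. B6 is the C57Bl/6 strain, the control here. B6.Sle2, called Sle2 below, is a congenic strain: it carries the lupus susceptibility locus Sle2 from chromosome 4 of the NZM2410 strain on that same B6 background. All genes of the transferred segment came from NZM2410 together, so effects of single ones cannot be told apart here. The members Ddx58 and Isg15 also lie on chromosome 4. Whether they lie in the segment, and whether the NZM2410 sequence binds their probes alike, was not tested. The labels used here give no treatment, age, sex or method of B cell isolation. The study compared the gene expression of peripheral B cells between the strains.

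Interferon alpha and beta bind a receptor made of Ifnar1 and Ifnar2, which acts through the kinases Jak1 and Tyk2. These kinases phosphorylate Stat2, which joins Irf9 in a complex that binds interferon-stimulated response elements in the promoters of its target genes. Raised levels of the target genes in blood cells are a known feature of human lupus, and B cells carry the receptor and respond through it.

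No strain difference among the 24 tested members passed an adjusted p of 0.05 in limma, and 21 of the 24 read slightly higher in Sle2, with a median difference of 0.19 on the log2 scale. The range over the 3 Sle2 mice was wider than the strain difference in 23 of the 24, against 67.6% of all genes. Of the 24, 22 were highest in mouse 3 among the Sle2 mice and 21 were lowest in mouse 1 among the B6 mice. Genes such as Ifit3, Oas2 and Usp18 stood about 2-fold higher in Sle2 mouse 3 than in the mean of its 2 strain mates. Over all 9297 genes the median difference was 0.02, and 54.2% of them were higher in Sle2, against 87.5% of the tested members.

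The binding element of the complex that holds Stat2 and Irf9 can be read directly in the promoters of several members. RefSeq promoter sequences of build GRCm38.p6, from 250 bases before to 50 bases after the start of transcription, were matched to 22 of the 32 members. The core searched was GAAANNGAAA, where N is any base, on both strands, so that TTTCNNTTTC counted too and overlapping matches were each counted. The windows of the 8 tested members that held a core are printed 5′ to 3′ along the gene's own strand, with the matches in capitals.
Isg15, chr4:156200855-156200916, minus strand: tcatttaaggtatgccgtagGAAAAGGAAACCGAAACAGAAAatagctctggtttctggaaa
Ifit3, chr19:34583353-34583436, plus strand: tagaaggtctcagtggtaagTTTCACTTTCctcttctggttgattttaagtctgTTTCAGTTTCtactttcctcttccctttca
Rsad2, chr12:26456543-26456592, minus strand: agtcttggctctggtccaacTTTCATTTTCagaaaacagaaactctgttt
Bst2, chr8:71537567-71537622, minus strand: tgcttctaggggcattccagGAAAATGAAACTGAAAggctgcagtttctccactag
Trim30a, chr7:104465200-104465249, minus strand: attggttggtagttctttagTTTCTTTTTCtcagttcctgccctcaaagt
Stat2, chr10:128270256-128270305, plus strand: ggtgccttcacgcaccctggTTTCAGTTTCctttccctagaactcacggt
Eif2ak2, chr17:78882525-78882574, minus strand: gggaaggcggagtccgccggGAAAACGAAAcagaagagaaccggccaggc
Ddx58, chr4:40239794-40239843, minus strand: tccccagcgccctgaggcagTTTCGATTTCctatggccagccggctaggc

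The Isg15 window held 3 overlapping cores, which began 78, 72 and 66 bases before the start of transcription, counted on the gene's strand. Ifit3 carried 2 separate cores, beginning 156 and 122 bases before the start, and Bst2 carried 2 overlapping ones. In Eif2ak2 and Ddx58 the core lay after the start of transcription. Trim30a had a second promoter in the table, with a core too. Among the members that were not tested, Ifit1, Ifih1, Oas1a, Oas3 and Cxcl10 had a core in their promoters.

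A core was present in 13 of the 22 members with a promoter sequence, or 59.1%, and in 3.99% of the 27025 genes of the promoter table. At least 2 cores were present in 5 members, or 22.7%, against 0.266% of all genes. The gamma-activated site core TTCNNNGAA, which reads alike on both strands, was present in 6 of the 22, or 27.3%, against 9.55% of all genes. In Bst2 one such match overlapped the response element. These shares describe letters in a window and say nothing of binding in these cells. Dhx58, Zbp1, Ifi204, Oas2, Mx1, Mx2, Usp18, Ifi27l2a, Rtp4 and Tor3a were not in the promoter table.

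Median probe intensities before normalization were 53.59 to 56.74 on the Sle2 arrays and 50.44 to 52.05 on the B6 arrays, so each Sle2 array was brighter than each B6 array, and 17417 to 17923 probes were detected. Arrays give no read depth, so the number of mice limits the precision. Levels below are log2 values after background correction and quantile normalization, differences are the Sle2 mean minus the B6 mean of those log2 values, given with their standard errors, and adjusted p-values are those of limma over all probes kept. Probes differ in how brightly they bind, so no gene's level was set against another's. The 6 B cell markers with a probe kept, among them Ms4a1 and Cd79b, averaged 10.57 to 10.64 in every mouse, although Pax5 was dim and Cd79a had no probe paired with it. In RNA from many cells, fewer cells of a type and less RNA per cell cannot be told apart.

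The counts of strain differences among the members are set here beside those of all genes. Across all 9297 genes, 97 passed the adjusted p of 0.05 in limma, which is 1.04%, with 0.656% higher and 0.387% lower in Sle2. Of the 24 tested members 0 passed. At an unadjusted p of 0.05 in limma, 3 members passed, namely Isg20, Oasl1 and Rsad2, all higher in Sle2, or 12.5% of the 24. The background at that threshold was 16.9% of all genes in either direction and 10.5% higher in Sle2. The values of the strains did not overlap for 2 members, Isg20 and Oasl1, or 8.33%, against 24.2% of all genes. The count of 3 was 6, or 25% against 11.7% of all genes, without Sle2 mouse 1, and 6 against a background of 15.8% with Xist as a covariate. It was 7, or 29.2% against 19.2%, with mouse number as a block, and 5, or 20.8% against 27.4%, with arrays scaled to equal medians. It was 2, or 8.33%, without B6 mouse 1, without B6 mouse 2, or with the mean of all probes of a gene. The shares of all genes were 21.9%, 13.2% and 18% there. Without both mice high in Xist it was also 2, with 1 higher in Sle2, against 9.73% of all genes.

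The small excess toward Sle2 changed in size with the mice included. Without Sle2 mouse 3 the members' median difference was 0.04, with 14 of 24 above 0. Without B6 mouse 1 it was 0.08, with 19 of 24 above 0, and without Sle2 mouse 1 it was 0.39. Without Sle2 mouse 2, B6 mouse 2 and B6 mouse 3 it was 0.23, 0.26 and 0.27. The members' mean level was 7.92 ± 0.33 in Sle2 and 7.70 ± 0.21 in B6 (SD, n = 3 each). The strain means thus differed by less than the SD among the Sle2 mice and the within-strain SD of 0.28. They differed by about the SD among the B6 mice.

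**Figure D1:**
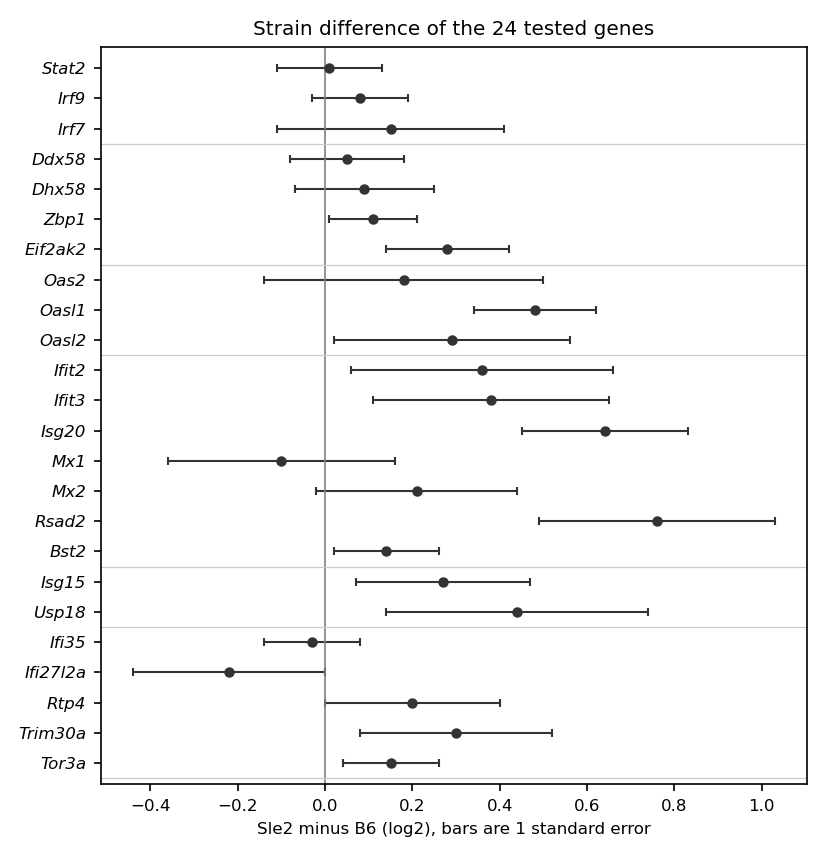
Difference between the strains for the 24 tested members, as Sle2 minus B6 on the log2 scale; points are limma estimates and bars 1 standard error, with lines between the roles. The estimates run from -0.22 to 0.76, with 21 above 0 and 0 called at an adjusted p of 0.05.

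Among the 3 transcription factors, the strains differed little. Irf9, the DNA-binding part of the interferon complex, read 10.44, 10.62 and 10.62 in Sle2 mice 1, 2 and 3 and 10.35, 10.56 and 10.51 in B6 mice 1, 2 and 3, an order kept below. Its values overlapped between the strains and lay within a narrow band, with a difference of 0.08 ± 0.11 (SE, adjusted p = 0.718). The other Irf9 probe kept gave -0.17 ± 0.11 (adjusted p = 0.43), so the probes of this gene disagreed in direction. Irf7, the factor that amplifies interferon production, read 5.86, 6.30 and 6.98 in Sle2 and 5.99, 6.21 and 6.49 in B6. Sle2 mouse 3 was the highest of the 6 and Sle2 mouse 1 the lowest, so the strains overlapped entirely, and the difference was 0.15 ± 0.26 (adjusted p = 0.796). Stat2, the partner of Irf9 in that complex, differed by 0.01 ± 0.12.

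The sensors of foreign nucleic acid differed little between the strains. Eif2ak2 encodes PKR, a kinase that binds double-stranded RNA and halts translation, and its promoter core is the one printed after the start of transcription. It read 9.19, 9.36 and 9.66 in Sle2 and 8.93, 9.17 and 9.25 in B6. The lowest Sle2 mouse fell within the B6 range, and the difference was 0.28 ± 0.14 (adjusted p = 0.349), a 1.22-fold change. Ddx58, which encodes the RNA sensor RIG-I, differed by 0.05 ± 0.13, and Dhx58, its relative LGP2, by 0.09 ± 0.16. Zbp1, a sensor of Z-form nucleic acid, differed by 0.11 ± 0.10 and was the one sensor tested whose lowest Sle2 value was in mouse 3. Ifih1, the RNA sensor MDA5, and Ifi204, a DNA sensor of the pyrin and HIN family, had probes that were detected on no array.

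The oligoadenylate synthetase family makes, or is related to enzymes that make, the messenger that activates RNase L. Oasl1, a family member that in mice restrains translation of Irf7, read 6.97, 7.26 and 7.50 in Sle2 and 6.64, 6.83 and 6.83 in B6. Each Sle2 mouse was above each B6 mouse, with means of 7.24 ± 0.27 and 6.77 ± 0.11 (SD, n = 3 each) and an exact two-sided permutation p of 0.1, the smallest that 3 against 3 allows. The limma difference was 0.48 ± 0.14, or 1.39-fold, with an adjusted p of 0.16. The other 2 Oasl1 probes kept gave 0.21 (adjusted p = 0.609) and -0.11 (adjusted p = 0.742), so the probes of this gene disagreed in direction.

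Oas2 and Oasl2 showed a wide spread between mice instead. Oas2 read 6.75, 7.44 and 8.19 in Sle2 and 6.94, 7.60 and 7.31 in B6. Its highest and lowest values both lay in Sle2 mice, and the strain difference of 0.18 ± 0.32 was small beside that range. Oasl2, an active synthetase with ubiquitin-like domains, read 6.74, 7.13 and 7.85 in Sle2 and 6.56, 7.10 and 7.19 in B6. Apart from Sle2 mouse 3 the mice of both strains covered a common range, and the difference was 0.29 ± 0.27 (adjusted p = 0.62). The other 2 Oasl2 probes kept gave -0.04 and -0.25, and the mean of its probes gave 0.00, so here too the direction depended on the probe. The probes of Oas1a and Oas3 were detected on no array.

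The antiviral effectors held the biggest differences of the list, with a median of 0.36 over 7 tested of 8 listed. Isg20, an exonuclease that degrades viral RNA, read 6.36, 6.35 and 6.62 in Sle2 and 5.42, 5.76 and 6.21 in B6. All 3 Sle2 mice were above all 3 B6 mice, with means of 6.44 ± 0.15 and 5.80 ± 0.39 (SD, n = 3 each), and the exact two-sided permutation p was again 0.1. The limma difference was 0.64 ± 0.19, or 1.56-fold, with an adjusted p of 0.15. Rsad2 encodes viperin, which makes a chain-terminating nucleotide and blocks viral replication. It read 8.60, 8.28 and 9.31 in Sle2 and 7.75, 7.75 and 8.42 in B6. Sle2 mouse 3 was the highest, and B6 mouse 3 lay above Sle2 mouse 2, so the strains overlapped. Rsad2 had the biggest estimate of the 24, at 0.76 ± 0.27, or 1.69-fold, with an adjusted p of 0.211 and an exact two-sided permutation p of 0.2. Without Sle2 mouse 3 it was 0.47, below the 0.56 of Isg20, and without both mice high in the female-specific RNA Xist it was 0.36. With the mouse number as a block it was the one member that passed, at an adjusted p of 0.0413 in limma. The labels do not say whether the numbers pair the mice.

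The Ifit proteins bind viral RNA and stop its translation. Ifit2 read 7.33, 7.52 and 8.40 in Sle2 and 6.94, 7.35 and 7.89 in B6. The highest mouse was again Sle2 mouse 3 and the lowest B6 mouse 1, and the difference was 0.36 ± 0.30 (adjusted p = 0.58). Ifit3, whose promoter holds the 2 cores printed above, read 9.04, 9.21 and 10.14 in Sle2 and 8.80, 9.26 and 9.20 in B6. Sle2 mice 1 and 2 lay within the B6 range while mouse 3 stood clear of all others, and the difference was 0.38 ± 0.27 (adjusted p = 0.499). Another Ifit3 probe gave 0.42, and Ifit3 has a near-identical neighbour, Ifit3b, whose transcript could bind the same probes. Ifit1 itself was not detected on any array.

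The remaining effectors differed by -0.10 to 0.21. Mx1 and Mx2, dynamin-like GTPases that trap viral components, differed by -0.10 ± 0.26 and 0.21 ± 0.23, and both were highest in Sle2 mouse 3. Mx1 ranged from 5.83 in Sle2 mouse 1 to 6.89 in Sle2 mouse 3, with the B6 mice between them. Bst2, the membrane tether tetherin, differed by 0.14 ± 0.12 (adjusted p = 0.599).

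Isg15, a ubiquitin-like protein that is attached to other proteins, and Usp18, the protease that removes it and also damps the receptor, had a like pattern over the mice. Isg15, with the 3 overlapping cores printed above, read 7.07, 7.42 and 7.81 in Sle2 and 6.88, 7.28 and 7.33 in B6. Sle2 mouse 1 fell inside the B6 range, and the difference was 0.27 ± 0.20, or 1.21-fold (adjusted p = 0.514). Usp18 read 7.66, 8.04 and 8.89 in Sle2 and 7.36, 8.04 and 7.88 in B6. Mouse 3 stood above every B6 mouse while Sle2 mice 1 and 2 lay within the B6 range, and the difference was 0.44 ± 0.30, or 1.35-fold (adjusted p = 0.485). A second Usp18 probe gave 0.24.

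Of the other induced genes, Ifi27l2a, a small hydrophobic protein, read 10.82, 10.75 and 11.53 in Sle2 and 11, 11.19 and 11.59 in B6. Mouse 3 was the highest within each strain, and the difference of -0.22 ± 0.22 was the lowest of the 24 (adjusted p = 0.64). Trim30a, a ubiquitin ligase family member that restrains inflammatory signalling in mice, read 8.31, 8.25 and 8.98 in Sle2 and 7.97, 8.13 and 8.55 in B6. Its strains overlapped through B6 mouse 3, with a difference of 0.30 ± 0.22 (adjusted p = 0.514). Tor3a, an ATPase of the torsin family, read 7.92, 7.81 and 8.07 in Sle2 and 7.85, 7.80 and 7.68 in B6. It was the only tested member with B6 mouse 1 highest in its strain, the strains overlapped, and its difference was 0.15 ± 0.11 (adjusted p = 0.489). Ifi35, which binds the interferon-induced protein Nmi, read 8.71, 8.83 and 8.96 in Sle2 and 8.72, 8.90 and 8.97 in B6. Its values were nearly the same in both strains, at -0.03 ± 0.11. Rtp4, a chaperone-like transporter protein, differed by 0.20 ± 0.20 and was not detected in B6 mouse 1. Xaf1, which promotes cell death, was detected on no array, the chemokine Cxcl10 in Sle2 mouse 3 only, and no probe was paired with Ifi44.

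**Figure D2:**
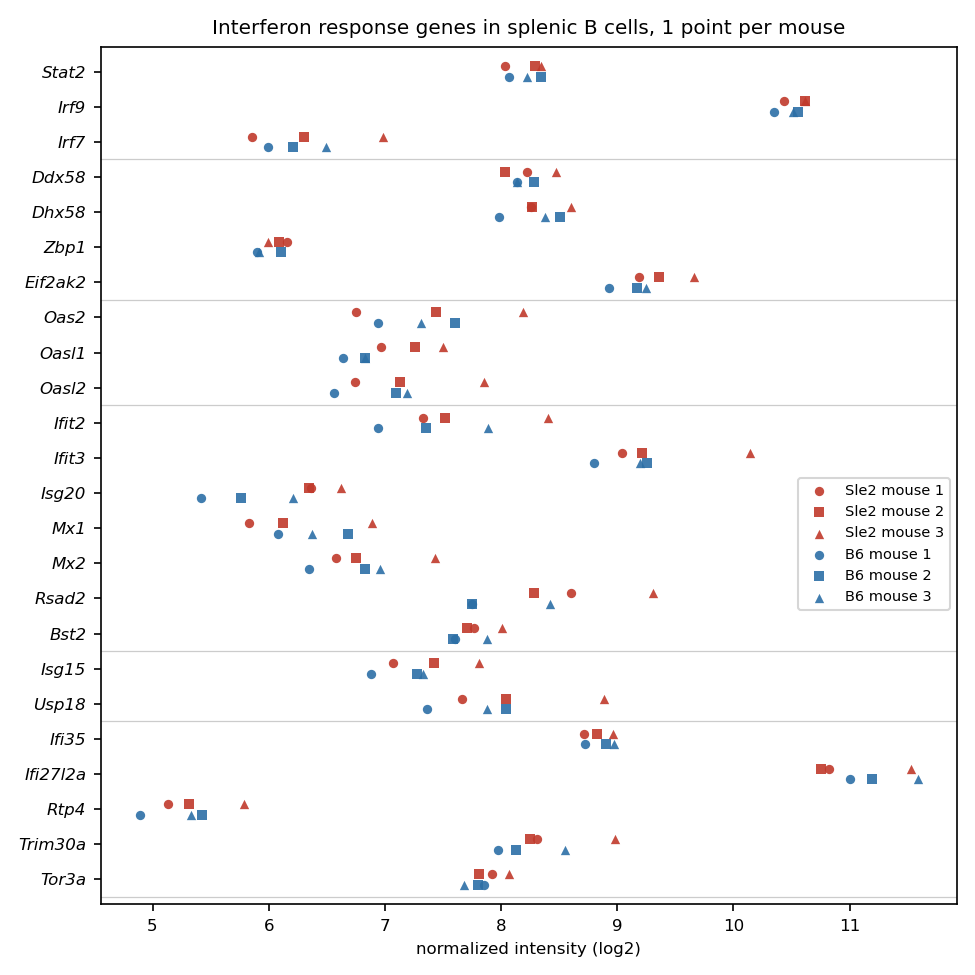
Normalized log2 level of the 24 tested members; each point is 1 mouse, with the colour giving the strain and the shape the mouse number, and lines separate the roles. In most members the highest of the Sle2 points is mouse 3 and the lowest of the B6 points is mouse 1; Zbp1 and Irf9 were the tested members whose highest Sle2 value was in another mouse.

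The members varied together from mouse to mouse. In Sle2 mouse 3 the median deviation of the 24 members from their strain mean was 0.38, against -0.21 in mouse 1 and -0.11 in mouse 2. In the B6 mice it was -0.25, 0.09 and 0.12. Over all 9297 genes the same medians lay between -0.01 and 0.01, which quantile normalization fixes near 0. The mean level of the members was 7.66, 7.80 and 8.29 in the Sle2 mice and 7.46, 7.78 and 7.85 in the B6 mice. Sle2 mouse 3 stood above every B6 mouse and B6 mouse 1 below every Sle2 mouse, while Sle2 mice 1 and 2 lay between B6 mice 1 and 3.

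Single genes followed the same order. Sle2 mouse 3 was the highest Sle2 mouse in 22 of 24 members, or 91.7%, against 29.8% of all genes. The exceptions were Zbp1, highest in mouse 1, and Irf9, highest in mouse 2. B6 mouse 1 was the lowest B6 mouse in 21 members, or 87.5%, against 36.9% of all genes. Both held in 19 members, or 79.2%, against 11.5% of all genes. The range over the 3 Sle2 mice was wider than the strain difference in 23 members, or 95.8%, against 67.6% of all genes. The within-strain SD of the members had a median of 0.32, against 0.14 over all genes. These are descriptions of 6 mice, and the members within a mouse share 1 RNA sample.

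**Figure D3:**
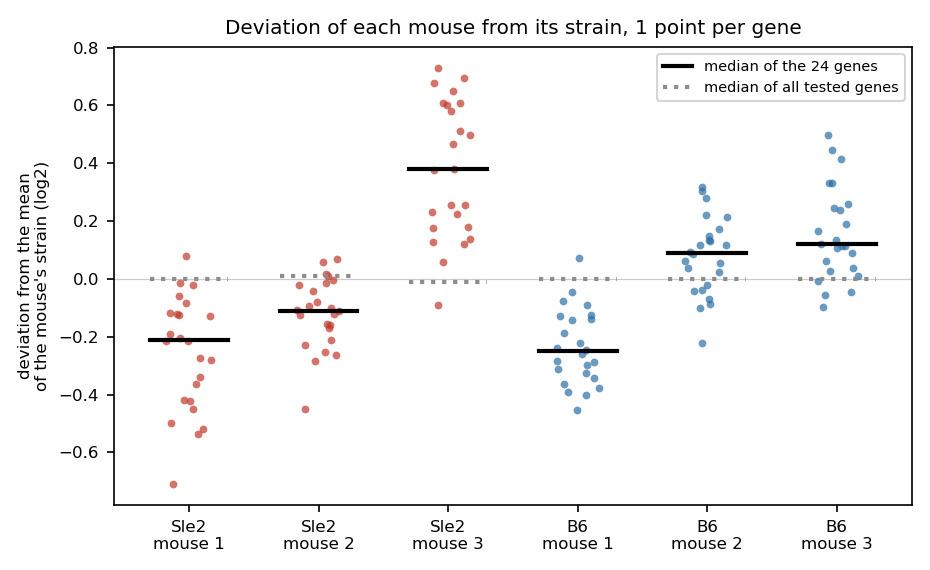
Deviation of each mouse from the mean of its strain, on the log2 scale, for the 24 tested members; each point is 1 gene in 1 mouse, the black line marks their median and the dotted line the median of all tested genes. The medians are -0.21, -0.11 and 0.38 in Sle2 mice 1 to 3 and -0.25, 0.09 and 0.12 in B6 mice 1 to 3.

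The excess in Sle2 mouse 3 was unequal over the roles. Set against the mean of Sle2 mice 1 and 2, the median excess was 0.92 for the oligoadenylate synthetase family, 0.87 for the antiviral effectors and 0.81 for Isg15 and Usp18. It was 0.34 for the sensors and 0.18 for the transcription factors. Oas2 stood 1.10 higher there, or 2.14-fold, Usp18 1.04 higher, or 2.06-fold, and Ifit3 1.02 higher, or 2.03-fold. Ifit2 stood 0.97 higher, Oasl2 0.92, Mx1 and Irf7 0.91, and Rsad2 0.87. By contrast Isg20 and Oasl1, the members whose strains did not overlap, stood 0.26 and 0.39 higher in that mouse. There is 1 mouse behind these figures, so they carry no test.

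A gap above 0.5 in Sle2 mouse 3 was found for 83 of the 9297 genes, or 0.893%, and for 13 of the 24 members, or 54.2%. The members thus made up 15.7% of those 83 genes, and 8 of the first 20. In the opposite direction 73 genes stood more than 0.5 lower, of which 0 were members. The limit of 0.5 was chosen after the values were seen. The 11 other probes kept for members, from 8 genes, showed a like order of the mice: 10 were highest in Sle2 mouse 3 among the Sle2 mice, and 8 were lowest in B6 mouse 1. Their strain difference had the sign of the tested probe in only 6 of the 11, and with all probes of a gene averaged 19 members, not 21, were above 0.

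Promoters with the response element were also described outside the list. Of the 289 tested genes that held a core and were no members, 8, or 2.77%, stood more than 0.5 higher in Sle2 mouse 3. Among the 7291 genes without a core it was 52, or 0.713%. The highest Sle2 value was in mouse 3 for 35.3% of the 289, against 29.7%. Only the members were left out of the 289, so other interferon induced genes could be among them. Within the list, the 8 tested members with a core had a median excess of 0.48 in that mouse, and the 7 with a promoter sequence and no core had 0.39.

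The other genes of the pathway did not all follow the members. Of 18 interferon ligand genes, 4 had a probe kept, all on chromosome 4 as Sle2 is, and 0 passed in limma. At an unadjusted p of 0.05 in limma, which 16.9% of all genes passed in either direction, Ifnab was lower in Sle2. Ifna1 was too, but its probe was kept through the B6 arrays alone. Ifnab read 7.08, 7.06 and 7.10 in Sle2 and 7.32, 7.36 and 7.58 in B6, a difference of -0.34 (adjusted p = 0.163). Each Sle2 mouse was below each B6 mouse. Ifna1 was detected in 0 of 3 Sle2 and 3 of 3 B6 mice, at -0.26 (adjusted p = 0.266), so its p-value gives no support to a lower level. Ifnz and Ifna6 differed by -0.13 and -0.06. The interferon alpha genes are near-identical copies of one another, so a probe may bind several, and whether the NZM2410 sequence binds these probes alike was not tested. The probe of Ifnb1, the interferon beta gene, was not kept.

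Of the 24 genes of the receptor and its relay, 20 were tested, 16 were above 0 and 0 passed. At an unadjusted p of 0.05 in limma, 6 were higher and 1 was lower. Of all genes, 10.5% were higher in Sle2 at that threshold and 16.9% passed in either direction. The strains did not overlap for 9 of the 20, against 24.2% of all genes. Ikbke, a kinase that activates Irf3 and Irf7, differed by 0.40 (adjusted p = 0.153). Sting1, the adaptor for DNA in the cytosol, differed by 0.29 (adjusted p = 0.162), and Cgas, the DNA sensor upstream of it, by 0.29 (adjusted p = 0.196). Socs3, an inhibitor of cytokine receptors, differed by 0.40 (adjusted p = 0.189). The receptor chain Ifnar2 read 7.70, 7.65 and 7.42 in Sle2 and 7.82, 7.55 and 7.82 in B6, with overlapping strains. Sle2 mouse 3 was the highest Sle2 mouse in 5 of these 20 genes, or 25%, so the relay genes did not share the order of the members. The probes of Ifnar1, Tlr3 and Socs1 were not kept.

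A further 48 type I interferon induced genes shared that order in part. Of the 33 tested, 15 were above 0, the median difference was -0.02 and 0 passed. At an unadjusted p of 0.05 in limma 2 were higher and 1 was lower, against 16.9% of all genes in either direction. Sle2 mouse 3 was the highest Sle2 mouse in 20 of them, or 60.6%, and B6 mouse 1 the lowest B6 mouse in 17, or 51.5%. Ifi205, a relative of Ifi204, differed by 0.72 (adjusted p = 0.136), Phf11a by 0.36 (adjusted p = 0.29), Ly6e by -0.31 (adjusted p = 0.245) and Ifitm1 by -0.39 (adjusted p = 0.362). Ifitm3, a membrane protein that blocks viral entry, read 8.76, 8.77 and 9.50 in Sle2 and 8.95, 9.14 and 9.64 in B6. It was highest in mouse 3 of each strain.

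Of 12 genes known for their induction by interferon gamma, 9 were tested, 7 were above 0 with a median of 0.13, and 0 passed. Only 1 was higher at an unadjusted p of 0.05 in limma, against 10.5% of all genes. Cxcl9 differed by 0.71 (adjusted p = 0.101), Irgm1 by 0.24 (adjusted p = 0.302), Irgm2 by 0.18 (adjusted p = 0.361) and Gbp7 by 0.24 (adjusted p = 0.448). Sle2 mouse 3 was highest among the Sle2 mice in 7 of the 9. Its median excess over these genes was 0.20, against 0.57 over the members.

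Sex-linked genes set Sle2 mouse 3 and B6 mouse 2 apart. Xist, made from the inactive X chromosome of females, read 10.93 in Sle2 mouse 3 and 10.13 in B6 mouse 2, against 4.30 to 4.36 in Sle2 mice 1 and 2 and B6 mouse 1. In B6 mouse 3 it was detected at 5.89, beside a Y-linked signal as high as in those mice. The Y-linked gene Eif2s3y was low in those 2 mice, at 5.36 and 4.65, and read 8.33 to 8.67 elsewhere. Without both mice the members' median difference was 0.07, with 17 of 24 above 0 and 0 called. With the Xist signal as a covariate it was 0.22. B6 mouse 2, with the same sex-linked pattern, had a median member deviation of 0.09, against 0.38 in Sle2 mouse 3. The part of sex in the result was not tested beyond these values.

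Genes of other cell types also varied between mice. A list of 10 pancreatic acinar genes, added after the data were seen, averaged 4.89, 4.84 and 6.40 in Sle2 and 6.10, 5.12 and 6.59 in B6. Sle2 mouse 3 carried the most of these transcripts in its strain, and B6 mouse 1, the lowest for the members, carried nearly as much. The 4 plasmacytoid dendritic cell markers kept, of a cell type known for making interferon, averaged 7.18, 6.78 and 7.63 in Sle2 and 7.05, 6.67 and 7.01 in B6. Their median excess in Sle2 mouse 3 was 0.54, against 0.57 for the members and 0.91 for the pancreatic acinar genes. In B6 mouse 1 their median deviation was 0.14, against -0.25 for the members, and all 4 were lowest in B6 mouse 2. Klk1 was detected in only 2 Sle2 and 2 B6 mice. Klk1, at 4.95, 4.53 and 6.42 in Sle2, and Cox6a2, at 7.49, 7.24 and 8.03, were highest in mouse 3. Siglech read 8.13, 7.24 and 8.10 and Pacsin1 8.13, 8.12 and 7.98, so these were not, and the probe of Ccr9 was not kept.

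Neutrophil markers averaged 6.92 to 7.09 in Sle2 and 5.96, 6.45 and 7.49 in B6, over 7 of 9 listed with Elane and Cxcr2 not kept. They were lowest in B6 mouse 1, as the members were, and much alike among the Sle2 mice. Monocyte and macrophage markers, 10 of 12 kept without Itgam, averaged 10.08, 9.47 and 9.96 in Sle2 and 10.03, 9.59 and 9.94 in B6. T cell markers ranged from 6.52 to 6.84 in Sle2 and from 6.25 to 6.60 in B6, over 8 of 10 kept without Cd4 and Cd8a. Natural killer markers ranged from 7.02 to 7.68 and from 6.48 to 7.32, and both lists were lowest in mouse 3 of the Sle2 strain. The mean levels of 2 dendritic cell, 4 erythroid, 6 platelet and 5 plasma cell markers ranged from 5.53 to 6.01, 9.38 to 9.70, 5.54 to 5.72 and 8.13 to 8.46 in Sle2. The B6 ranges were 5.54 to 5.99, 8.42 to 9.43, 5.61 to 6.56 and 7.85 to 8.21. The part of these cells in the members' levels was not tested.

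**Figure D4:**
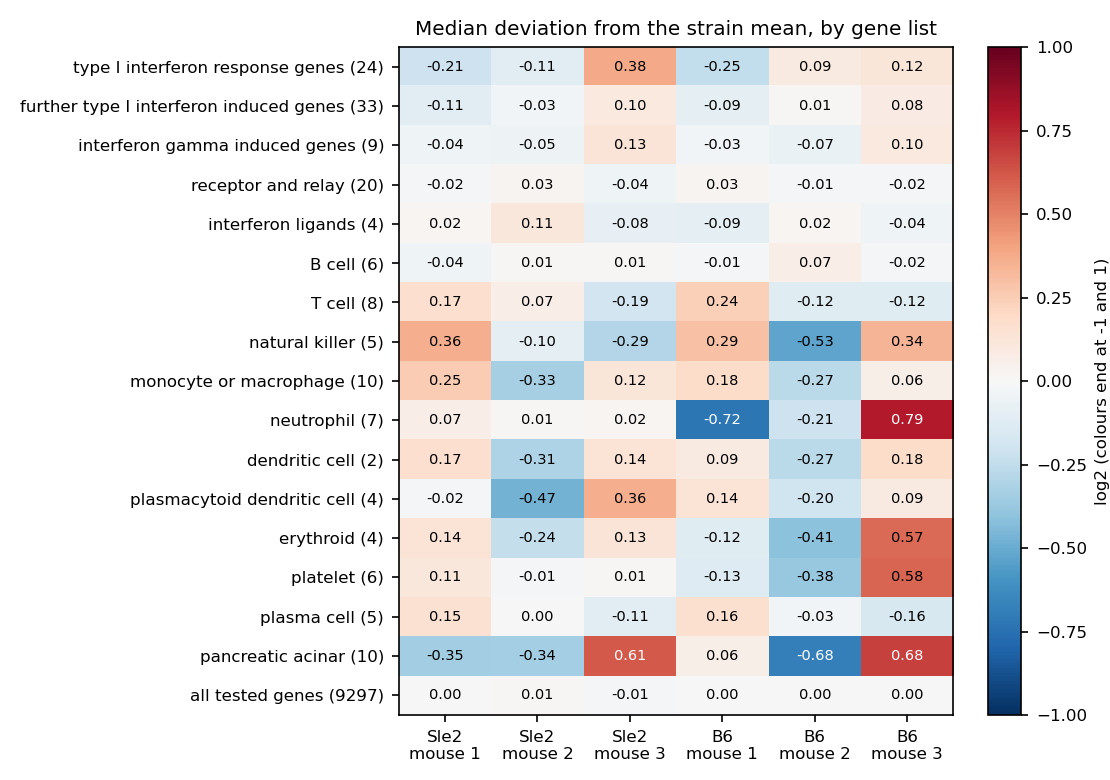
Median deviation of each mouse from its strain mean, on the log2 scale, for the members, the other pathway lists, the marker lists and all tested genes; each row is a list with its number of tested genes, each column a mouse, and colour and number give the deviation. The members are at 0.38 in Sle2 mouse 3, while the receptor and relay list is at -0.04 there.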

How the data were processed

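The authors deposited 1 table of probe intensity values with a detection p-value beside each, per the file headers, and GenomeStudio is named in the submitters' processing notes. A series matrix of normalized intensity was deposited as well, with its normalization not given in the sources used here. The 6 arrays are separate mice by their titles.

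From the intensities, limma 3.58.1 in R 4.3.3 ran neqc: normexp with 936 negative controls recovered from the detection p-values, an offset of 16, quantile normalization and log2. Of 45281 probes, 34885 had 1 gene symbol, 18 several and 10378 none. The 17861 probes with a detection p under 0.05 on at least 3 arrays were fitted with lmFit and eBayes, strain as the only term, and p-values were adjusted by Benjamini-Hochberg over all of them. A gene was its brightest kept probe. On simulated data for 9297 genes, limma called 24 of 50 genes shifted by 0.5 (log2), 45 of 50 shifted by 1, and 50 of 50 shifted by 2 or by 3. The shifted genes were drawn from all tested genes, whose median within-strain SD was 0.14, against 0.32 for the members. The recovery of members was therefore not measured.

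All mice's values are given for the 10 tested members with the smallest p, the 5 brightest and the 5 with the widest range in 1 strain. The lists are those of the report, and members and lists were chosen with earlier results of these data known. Alternatives changed the background correction, scaling, source, filter, prior, weights, probes, block, mice left out and threshold. Xist alternatives and the pancreatic list were added after the data were seen.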

Additional observations from a re-analysis of the deposited data

Results flagged for a closer look

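Cxcl10, a chemokine that draws T cells, had no probe in the comparison because it was detected on too few arrays. One of its probes was nonetheless above the detection threshold in Sle2 mouse 3, at 5.23 on the log2 scale, and not above it in any other mouse. It read 4.58 and 4.80 in the other Sle2 mice and 4.89, 4.93 and 4.50 in B6, and the gene's other probe was detected on no array. It was singled out as a signal in a probe that no comparison used.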

How the results depend on the processing

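The count of all genes called, 97 in limma, was 173 without background correction, 245 with arrays scaled to equal medians, 187 from the series matrix, 56 with no filter and 285 with a trended robust prior. It was 250 at an adjusted p under 0.1, 51 with Xist as a covariate and 27 with both Xist-high mice left out. Leaving out each mouse in turn gave 28 to 143: 28, 32 and 29 without Sle2 mice 1, 2 and 3, and 143, 56 and 38 without B6 mice 1, 2 and 3. Scaling to medians moved the share called higher from 62.9% to 89.4% and the median of all genes from 0.02 to 0.14, with the members at 0.29. The count of members called was 1 with mouse number as a replicate block, with 72 genes called in all, and 0 under every other alternative run. Same-numbered mice deviated together with r of 0.20, 0.13 and 0.04. Sle2 mice 1 and 2 each matched the B6 mouse of their own number best. Sle2 mouse 3 matched B6 mouse 2 best, at 0.07. Each B6 mouse matched the Sle2 mouse of its own number best. The labels do not say whether the numbers pair the mice, and this was not tested. Signs turned in 20 of 407 member values, and 14 of 24 members kept theirs throughout. Ifi35 was 0.11 with median scaling, Stat2 -0.02 with array weights, Irf9 -0.05 with the mean of its probes, and Irf7 -0.16, Ddx58 -0.01 and Oas2 -0.03 without the Xist-high mice. Leaving out each mouse gave -0.06 to 0.10 for Stat2, -0.15 to 0.42 for Irf7, -0.06 to 0.16 for Ddx58, -0.07 to 0.20 for Dhx58, -0.18 to 0.54 for Oas2, -0.02 to 0.54 for Oasl2, -0.40 to 0.13 for Mx1, -0.04 to 0.38 for Mx2 and -0.10 to 0.03 for Ifi35. The cause was not tested. Sle2 mouse 3 stayed highest of its strain in 21 to 23 members over the values tried, of 31 with no filter. Probes near background, 7 members among them, limit what these arrays show.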

Other observations

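Beside the 13 members, the 83 genes that stood more than 0.5 higher in Sle2 mouse 3 than in its strain mates held 4 other genes of the pathway lists. These were Ifitm3 at 0.74, Ifitm1 at 0.59, the kinase Jak1 at 0.55 and Phf11a at 0.51 on the log2 scale. The pancreatic enzyme Amy2a5 read 4.85, 4.59 and 9.99 in Sle2 and 9.48, 6.53 and 9.99 in B6.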
